A study of Mus musculus with 9 samples.

Results

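Day 4 of involution was set against day 14 of pregnancy, the stages at which the mouse mammary gland holds alveoli on the way into and out of milk production. The comparison used 4 of the 9 arrays of the series, chosen by their stage labels alone: 2 arrays at involution and 2 at pregnancy, each made from the inguinal gland (number 4) of 1 C57BL/6J female with no transgene or treatment. Pregnancy was counted from the vaginal plug, and involution was the regression that follows the end of lactation. The other 5 arrays were 3 from females at puberty (labelled virgin, 6 weeks old) and 2 from females at day 10 of lactation, and they entered through the estimate of the spread between animals, the filter on low signals and the choice of probe set per gene. The arrays (Affymetrix MG-U74Av2) held 12422 probe sets without controls, of which 9783, standing for 7091 named genes, had a mean signal above 20 at 1 stage or more. Transcripts that mark the gland were abundant on all 4 arrays, with signals of 8100 to 9963 for the milk protein gene Csn1s1 and 2860 to 5707 for the fat cell gene Adipoq. Whole glands were used, so fat, connective tissue, vessels, lymph node and blood could contribute RNA, and more cells of a type could not be told apart from more RNA per cell. The ages, litters and parity of the pregnant and involuting females were not given in the sources used here, and stage could not be told apart from them.

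In pregnancy, progesterone and prolactin drive ductal cells and alveolar progenitors to divide, partly through paracrine signals such as RANKL and WNT4, and the alveoli begin to make some milk proteins before birth. After weaning, milk stasis switches the epithelium from STAT5 to STAT3 signalling, alveolar cells die and are cleared by neighbouring epithelial cells and macrophages, proteases remodel the stroma, and adipocytes refill the space. Plasma cells that secrete dimeric IgA into milk settle in the gland around lactation.

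A gene's signal is given here per array on a linear scale after setting all arrays to equal medians, and a difference is the log2 ratio of involution to pregnancy with signals under 20 counted as 20. A gene was called when its Benjamini-Hochberg adjusted p from limma, over all 9783 probe sets, was below 0.05. In all, 394 probe sets were higher and 303 lower at involution, 4.03% and 3.1% of those tested and 7.12% together. Counted as genes, 309 rose (4.36%) and 218 fell (3.07%), 7.43% of all genes together. The counts per gene list given below are to be read beside these shares. The differences of the probe sets called had a median size of 1.17 on the log2 scale among rises and 1.19 among falls. Of the rises 263 probe sets reached 2-fold and 55 reached 4-fold, against 212 and 36 of the falls. Both arrays of one stage lay above both of the other for every probe set called, a pattern seen in either direction in 28% and 21.5% of all genes. The split between rises and falls depended on the scaling, since the values as deposited gave 337 higher and 404 lower, 45.5% of calls higher in place of 56.5%. It also depended on single arrays: leaving out pregnancy replicate 1 gave 135 and 88, leaving out pregnancy replicate 2 gave 83 and 83, leaving out involution replicate 2 gave 179 and 146, and leaving out puberty replicate 2 gave 257 and 185. Each array stood for 1 animal, and array signals correlated at 0.960 between the involution animals, 0.975 between the pregnant animals and 0.919 to 0.930 across the stages.

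**Figure D1:**
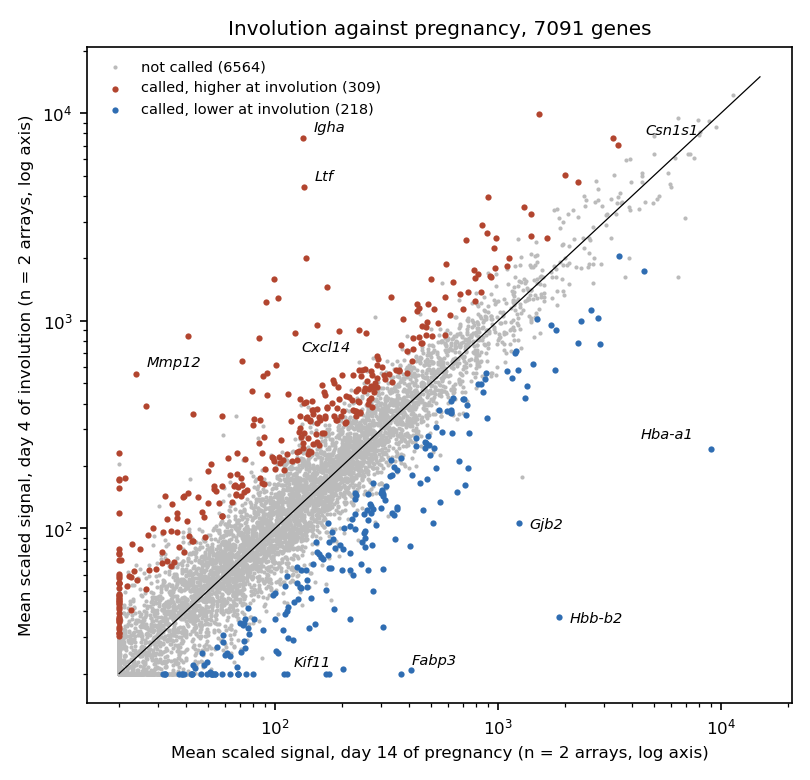
Mean scaled signal of 7091 genes at day 4 of involution (vertical, log axis) against day 14 of pregnancy (horizontal, log axis), with means under 20 drawn at 20, the line of equal signal, and called genes in colour (309 higher, 218 lower). Igha and Ltf stood farthest above the line and the globin genes farthest below it, while Csn1s1 lay on it.

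**Figure D2:**
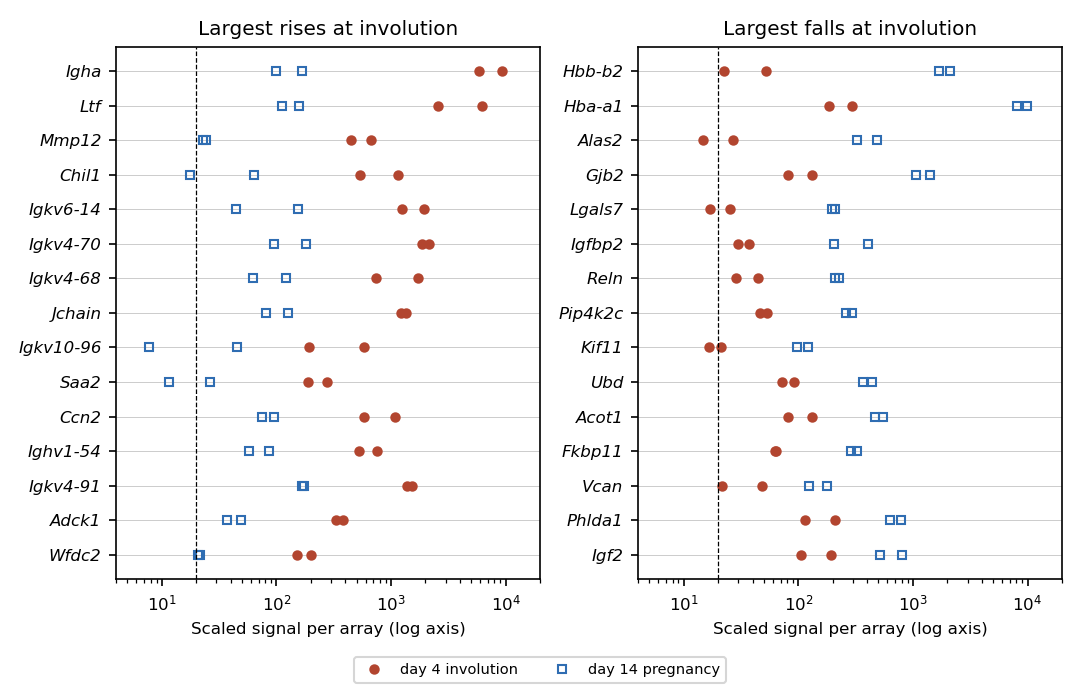
Scaled signal of each array (log axis) for the 15 largest rises and the 15 largest falls among called genes with signal at both stages, with filled circles for the 2 involution arrays, open squares for the 2 pregnancy arrays and a dashed line at the floor of 20. That the arrays of the stages did not overlap was a condition for choosing these 30 genes, and every probe set called met it.

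Antibody transcripts gave the largest rise. Igha, the constant region of IgA, measured 5856 and 9319 at involution against 98.9 and 168 at pregnancy. Both involution animals exceeded both pregnant ones by a wide margin, a log2 difference of 5.84 (SE 0.44, adjusted p = 0.000232). Its mean was 856 at lactation and 51.5 at puberty, so the involution arrays were the highest of the 9. A further Igha probe set rose as well (log2 difference 3.25) and another, near the floor, did not pass (adjusted p = 0.388). Jchain, the joining chain that links IgA dimers, measured 1364 and 1218 at involution and 126 and 81.7 at pregnancy (log2 difference 3.67, SE 0.37, adjusted p = 0.00125). Probe sets named for 6 immunoglobulin variable genes were also among the 15 largest rises, with log2 differences from 3.09 (Igkv4-91) to 4.23 (Igkv6-14). Variable genes are closely alike in sequence, so a probe set's name there is uncertain, and the second Igkv6-14 probe set lay near the floor and did not pass (adjusted p = 0.681). Of these 6, Igkv10-96 was lost in all fits without 1 array but those without a lactation array (adjusted p from 0.0603 to 0.237), and Ighv1-54 without pregnancy replicate 2 (adjusted p = 0.0695) or involution replicate 1 (adjusted p = 0.05), while the other 4 were called in every fit. Igkv6-14 had pregnancy signals of 154 and 44.3, and its log2 difference was 5.13 without pregnancy replicate 1 and 3.33 without pregnancy replicate 2. The involution animals parted for Igkv4-68 and Igkv10-96, whose log2 differences of 3.71 and 3.49 became 3.10 and 2.70 without involution replicate 1 and 4.32 and 4.29 without involution replicate 2.

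Of 20 markers of the B lineage tested, 5 rose (Igha, Jchain, Cd22, Blk and Ighm) and none fell in the fit of all 9 arrays. Of 9 probe sets for Ighm 4 were called higher, and of 2 for Blk 1 was, while the rest did not pass. The median log2 difference of the 20 markers was 0.84 beside 0.01 over all 7091 genes, with 17 of them above 0 and the lowest at -0.804. Their summed signal was 14532 and 17951 at involution and 4625 and 4589 at pregnancy, and Igha alone gave 5856 and 9319 of the involution sums. For Cd22 and Blk the involution means (144.6 and 175.9) were close to the puberty means (143.3 and 175.5), so these 2 were not above the virgin level. For Igha, Jchain and Ighm the puberty mean lay below both involution arrays. Cd22, a B cell surface receptor, measured 155 and 134 against 67.0 and 67.0 (log2 difference 1.11, SE 0.20, adjusted p = 0.0152). Its call was lost without pregnancy replicate 1 (adjusted p = 0.0698) or 2 (adjusted p = 0.0743). The count of 5 was 2 without pregnancy replicate 1 or 2, 3 without involution replicate 2, and 9 without lactation replicate 1 or 2. Igha and Jchain were called in each of the 9 fits that left out 1 array.

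Of 23 macrophage markers 12 rose, against 4.36% of all genes, and none fell. Mpeg1, which encodes a pore-forming protein of phagocytes, measured 1533 and 1659 at involution against 537 and 464 at pregnancy. The animals of each stage lay close together and the stages were well apart (log2 difference 1.68, SE 0.13, adjusted p = 0.000299). Mmp12, the macrophage elastase, stood just above the floor at pregnancy (23.1 and 24.5) and at 449 and 664 at involution. That log2 difference of 4.52 (SE 0.39, adjusted p = 0.00042) was shared by both of its probe sets, and the lactation mean was 90.2. Lgals3 (galectin-3), Csf1r (the receptor for colony stimulating factor 1) and Cd68 (a lysosomal membrane glycoprotein) rose by log2 differences of 1.71, 1.44 and 0.99. The summed signal of the 23 markers was 13013 and 16175 at involution and 7575 and 7250 at pregnancy. Mpeg1 and Mmp12 were called whichever array was left out. The count of 12 was 2 when pregnancy replicate 2 was left out, 3 when pregnancy replicate 1 was, and 6 when involution replicate 2 was. Lgals3 lost its call without pregnancy replicate 2 (adjusted p = 0.0662), Cd68 without pregnancy replicate 1 (adjusted p = 0.0621) or 2 (adjusted p = 0.0605), and Csf1r without pregnancy replicate 1 (adjusted p = 0.0585), pregnancy replicate 2 (adjusted p = 0.0795) or involution replicate 2 (adjusted p = 0.0631).

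Lysosomal genes rose with them. Of 38 members tested 12 rose and none fell, with a median log2 difference of 0.54. Ctss, the cathepsin that cuts the invariant chain in antigen-presenting cells, reached 2500 in both involution animals against 990 and 965 at pregnancy (log2 difference 1.36, SE 0.13, adjusted p = 0.000836). Cst3, cystatin C, a secreted inhibitor of cathepsins, measured 3418 and 3096 against 1545 and 1273 (log2 difference 1.21, SE 0.16, adjusted p = 0.00482). Enzyme and inhibitor were thus both higher at involution, and both kept their call without any 1 array. The other 10 rises ran from a log2 difference of 0.55 (Ctsl) to 1.32 (Ctsk), genes picked here after their values were seen. Leaving out pregnancy replicate 1, pregnancy replicate 2 or involution replicate 2 left 3, 2 or 4 of the 12, and Ctsl, with an adjusted p of 0.0466, was lost whichever array was left out (adjusted p from 0.0554 to 0.194). Cd68 stood in this list and among the macrophage markers.

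Antigen presentation genes of MHC class II gave 5 rises among 12 members (H2-Eb1, H2-Aa, H2-Ab1, H2-DMa and Ctss) and no fall. H2-Eb1, a beta chain of the peptide-binding molecule, measured 3349 and 3733 at involution against 1501 and 1127 at pregnancy (log2 difference 1.44, SE 0.19, adjusted p = 0.00442) and was called without any 1 array. The count was 2 without pregnancy replicate 2 or involution replicate 2 and 3 without involution replicate 1, lactation replicate 1 or lactation replicate 2. Ciita, the transactivator of these genes, measured 60.1 and 56.4 against 66.1 and 50.5, with overlapping arrays and a 95% interval of the log2 difference from -0.53 to 0.55. Irf8, an interferon regulatory factor of myeloid and B cells, measured 436 and 542 against 158 and 168 (log2 difference 1.58, SE 0.17, adjusted p = 0.00166) and kept its call without any 1 array, but not with no floor (adjusted p = 0.104). Of 35 interferon response genes 2 were higher (Irf8 and Irf1) and 2 lower (Ubd and Ifngr2), 5.7% each against 4.36% and 3.07% of all genes. The count of rises was 1 without pregnancy replicate 1, involution replicate 2 or puberty replicate 2, and that of falls 1 without either pregnancy or either involution array.

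Chemokines gave 8 rises among 32 members and no fall. Cxcl14, a chemokine made by epithelial and stromal cells, measured 810 and 937 at involution against 122 and 124 at pregnancy. This difference was large next to the spread between animals (log2 difference 2.83, SE 0.19, adjusted p = 0.000152), and the means at lactation (162) and puberty (77.0) lay near the pregnancy level. Ccl8, a monocyte attractant, measured 1003 and 1595 against 334 and 332 (log2 difference 1.93, SE 0.22, adjusted p = 0.00279). Both were called in all 9 fits without 1 array, while the count of 8 was 4 without involution replicate 1 or puberty replicate 2, 3 without pregnancy replicate 1 and 2 without pregnancy replicate 2 or involution replicate 2. T and NK cell markers gave 7 rises of 22, led by Gzma (granzyme A) with 57.8 and 54.9 against 23.9 and 24.4 (log2 difference 1.23, SE 0.20, adjusted p = 0.0108). These calls depended on single arrays: none of the 7 was called without pregnancy replicate 1 or 2, where the adjusted p of Gzma was 0.0679 and 0.0695, and 1 was called without involution replicate 1, 3 without lactation replicate 1 or 2 and 4 without puberty replicate 1. Among 15 neutrophil, mast cell and eosinophil markers 3 rose, of which Mmp9 (gelatinase B) measured 67.4 and 74.3 against 11.6 and 29.4 (log2 difference 1.55, SE 0.24, adjusted p = 0.00866). Mmp9 was not called without pregnancy replicate 1 (adjusted p = 0.0612) or involution replicate 2 (adjusted p = 0.0523), and of the 3 none was called without involution replicate 2 and 1 without either pregnancy array. Complement gave 5 rises of 16, of which 1 was called without pregnancy replicate 1, pregnancy replicate 2 or involution replicate 2 and 3 without either lactation array. C2, a serine protease of the classical pathway, measured 304 and 363 against 164 and 155 (log2 difference 1.06, SE 0.16, adjusted p = 0.00741) and lost its call without pregnancy replicate 2 (adjusted p = 0.0614).

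**Figure D3:**
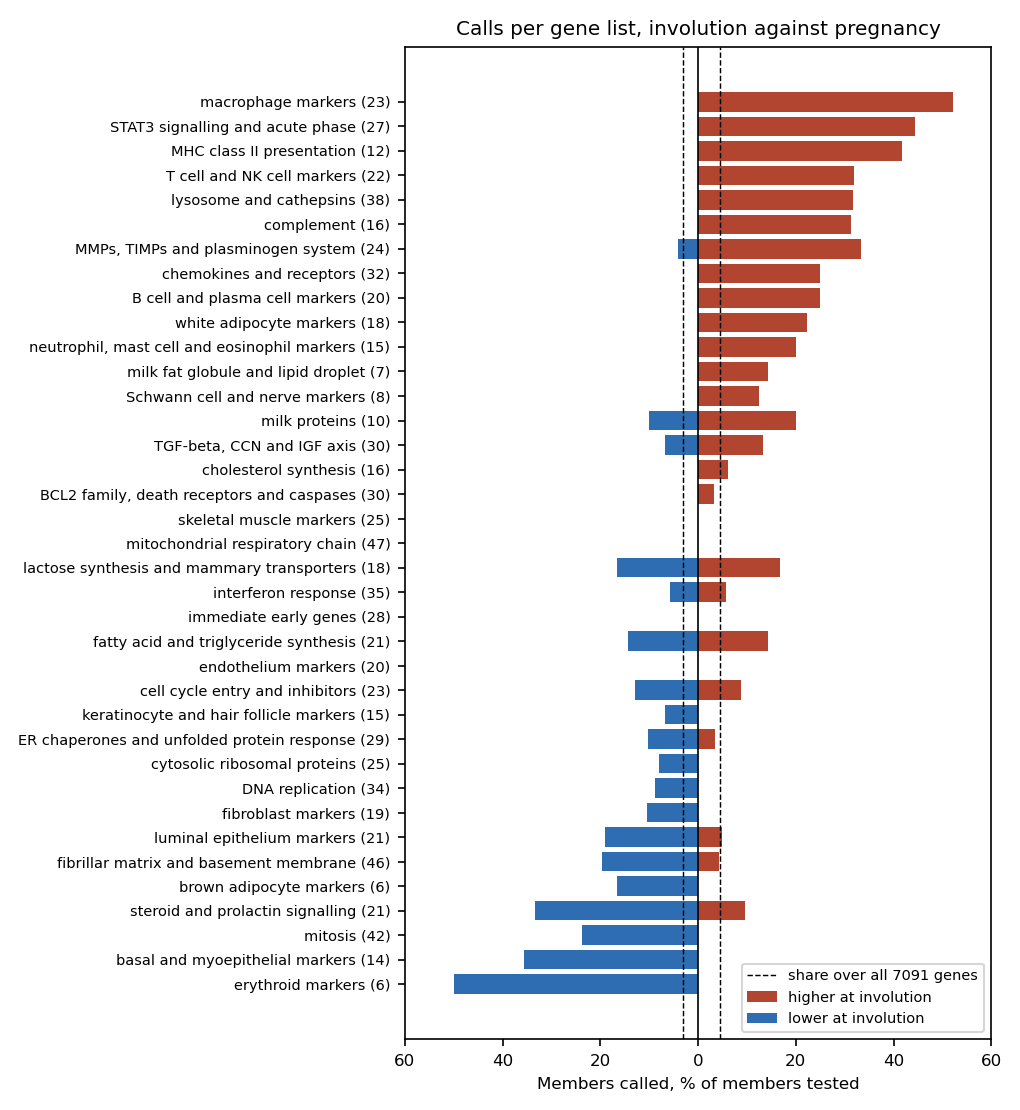
Share of the tested members of 37 gene lists called higher (right) or lower (left) at involution, in percent, with the number of members tested in parentheses and dashed lines at the shares over all 7091 genes. In the fit of all 9 arrays the macrophage, STAT3 and MHC class II lists reached the highest shares of rises. The erythroid, myoepithelial and hormone signalling lists reached the highest shares of falls in that fit. The lists were chosen with earlier results of these data known.

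The OSM receptor arm of STAT3 signalling rose. Osmr, the oncostatin M receptor, measured 410 and 465 at involution against 90.4 and 94.2 at pregnancy (log2 difference 2.24, SE 0.19, adjusted p = 0.00042). Its means at lactation (41.9) and puberty (118) were also below both involution arrays. Lifr, the leukaemia inhibitory factor receptor, measured 476 and 411 against 88.5 and 140 (log2 difference 1.99, SE 0.23, adjusted p = 0.00267), though its other 3 probe sets, all dimmer, did not pass. Il6st, the gp130 subunit that both receptors use, rose by 1.15 on the log2 scale. Of 27 genes of STAT3 signalling and the acute phase, 12 rose and none fell, with a median log2 difference of 0.91. Ceruloplasmin (Cp), a copper-carrying ferroxidase, measured 1658 and 2093 against 579 and 591 (log2 difference 1.67, SE 0.18, adjusted p = 0.00167). Serum amyloid genes reached the largest differences but varied most: Saa2 measured 275 and 190 against 11.5 and 26.4 (log2 difference 3.31, SE 0.75, adjusted p = 0.0344), and its lactation mean of 3877 was far above involution. Saa2 was lost in 7 of the 9 fits that left out 1 array, in all but those without lactation replicate 1 or 2 (adjusted p from 0.0577 to 0.201). Osmr, Lifr and Cp were called in each of the 9. The count of 12 was 4 in the fit that left out pregnancy replicate 1, 3 without pregnancy replicate 2 or involution replicate 2 and 7 without involution replicate 1. Il6st was lost without pregnancy replicate 1 (adjusted p = 0.0585), pregnancy replicate 2 (adjusted p = 0.0836) or involution replicate 2 (adjusted p = 0.0503). Macrophages and liver also make several of these proteins, and Cd14 stood in this list and the macrophage list.

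Ltf, Chil1, Wfdc2 and Anxa8 were also higher. Ltf, lactoferrin, the iron-binding defence protein of milk, measured 2589 and 6221 at involution against 113 and 157 at pregnancy (log2 difference 4.91, SE 0.49, adjusted p = 0.00114), and its lactation mean was 6686. The involution animals differed from each other by more than 2-fold, and the log2 difference was 5.55 without involution replicate 1 and 4.28 without involution replicate 2. Chil1, a chitinase-like secreted glycoprotein, measured 542 and 1159 against 17.7 and 63.9 and stood under 9 on average at lactation and puberty. Its log2 difference was 4.47 (SE 0.52, adjusted p = 0.00288), with 3.63 without pregnancy replicate 1 and 5.31 without pregnancy replicate 2. Wfdc2, a protease inhibitor of epithelia, measured 152 and 200 against 20.6 and 21.7 (log2 difference 3.04, SE 0.25, adjusted p = 0.000386), while its puberty mean was 264. Anxa8, an annexin, was below the floor in both pregnant animals (15.6 and 12.4) and measured 155 and 188 at involution, at least 8.52-fold higher (adjusted p = 0.00042). These 4 genes kept their call without any 1 array, but Chil1 was not called with no floor (adjusted p = 0.0733).

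**Figure D4:**
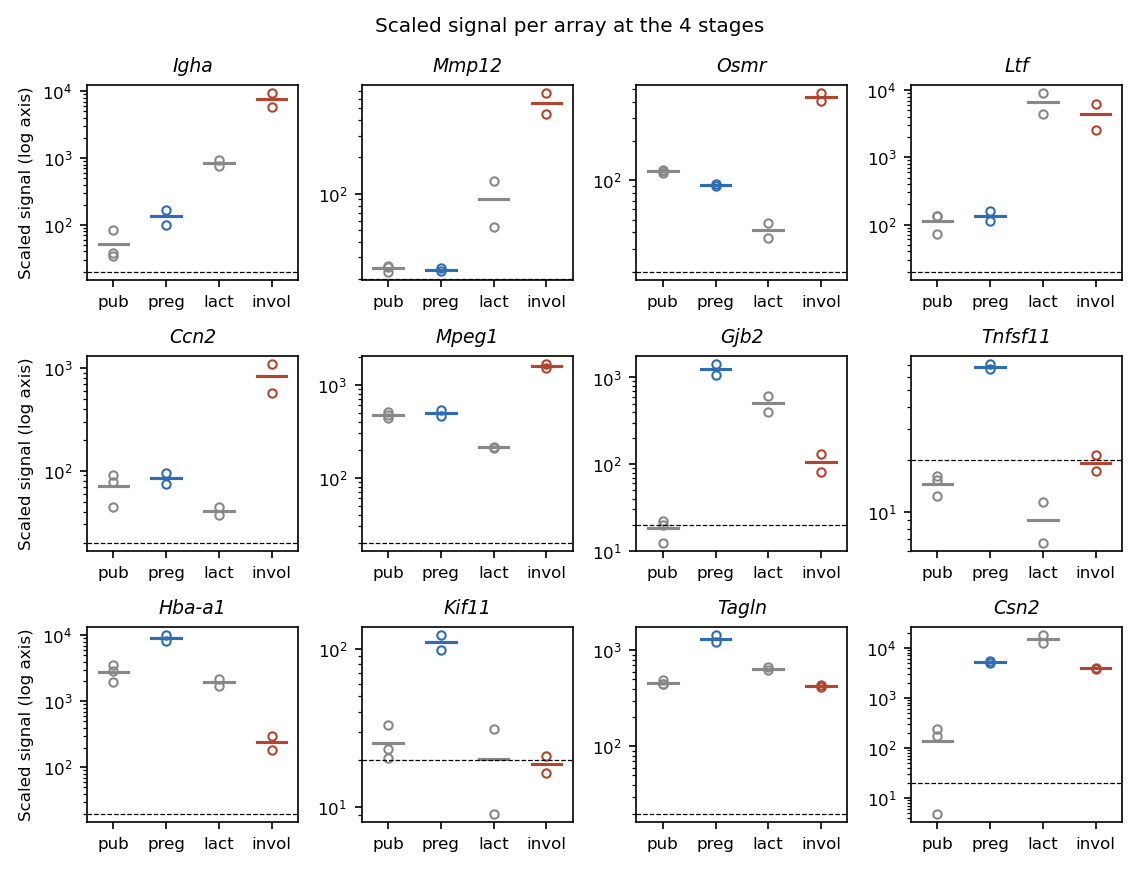
Scaled signal of 12 genes on each of the 9 arrays (log axes with separate ranges) at puberty, pregnancy, lactation and involution, with bars at the stage means and a dashed line at the floor of 20. Igha, Mmp12, Osmr, Ccn2 and Mpeg1 were highest at involution, Gjb2, Tnfsf11, Hba-a1, Kif11 and Tagln at pregnancy, and Ltf and Csn2 at lactation.

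Among 24 proteases and inhibitors of matrix remodelling, 8 rose and 1, Timp2 (picked after its values were seen), fell. Adam8, a membrane metalloprotease of leukocytes, was under the floor at pregnancy (9.40 and 19.6) and measured 50.7 and 64.4 at involution, at least 2.86-fold higher (adjusted p = 0.00166). Adam8 was called without any 1 array, as Mmp12 was, but not at a floor of 50 (adjusted p = 0.413). The number of rises was 5 without involution replicate 1, 3 without pregnancy replicate 1 or 2, and 2 without involution replicate 2. Timp2, an inhibitor of metalloproteases, measured 51.0 and 40.7 against 143 and 112 (log2 difference -1.48, SE 0.28, adjusted p = 0.0187). It was not called without pregnancy replicate 1 (adjusted p = 0.136) or 2 (adjusted p = 0.0861) or without involution replicate 1 (adjusted p = 0.0555) or 2 (adjusted p = 0.106).

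Growth factor and matricellular genes gave 4 rises and 2 falls of 30. Ccn2, connective tissue growth factor, measured 1088 and 577 at involution against 74.98 and 95.1 at pregnancy, and its means at lactation and puberty were 40.8 and 71.0. It was 9.38-fold higher at involution than at pregnancy (log2 difference 3.23, SE 0.40, adjusted p = 0.00341) and was called without any 1 array. Igf2, the embryonic insulin-like growth factor, measured 105 and 194 against 514 and 797 (log2 difference -2.17, SE 0.31, adjusted p = 0.0062). Igfbp2, a binding protein of that family, measured 29.7 and 37.0 against 407 and 206 (log2 difference -3.13, SE 0.46, adjusted p = 0.00669). Both fell, but Igf2 was not called without pregnancy replicate 2 (adjusted p = 0.0704) and Igfbp2 not without pregnancy replicate 1 (adjusted p = 0.069) or involution replicate 1 (adjusted p = 0.0551). The count of 4 rises was 1 without pregnancy replicate 1, pregnancy replicate 2 or involution replicate 2.

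Among called genes with signal at both stages, the deepest falls were of red cell transcripts. Hba-a1, alpha globin, measured 296 and 187 at involution against 9982 and 8145 at pregnancy (log2 difference -5.26, SE 0.31, adjusted p = 7.51e-05). Hbb-b2, a beta globin, measured 52.1 and 22.7 against 2097 and 1685 (log2 difference -5.77, SE 0.35, adjusted p = 7.98e-05). Alas2, the erythroid enzyme that starts haem synthesis, measured 14.6 and 27.1 against 488 and 325 (log2 difference -4.10, SE 0.31, adjusted p = 0.000243). All 3 were called without any 1 array, and involution lay below the puberty and lactation means as well, which were 2811 and 1942 for Hba-a1. Without involution replicate 1 the log2 difference of Hbb-b2 was -6.37, and without involution replicate 2 it was -5.17. Of 6 erythroid markers tested 3 fell (Hba-a1, Alas2 and Car2, a carbonic anhydrase that epithelium also makes). Slc4a1, the anion exchanger of the red cell membrane, measured 60.8 and 29.8 against 61.9 and 43.3 with overlapping arrays, and Epb42 and Car1 were under the floor on all 4 arrays. The summed erythroid signal was 592 and 480 at involution and 11167 and 9234 at pregnancy. Hba-a1 alone gave 296 and 187 of the involution sums and 9982 and 8145 of the pregnancy sums. The part of blood content in the other differences was not tested.

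Of 21 genes listed under steroid and prolactin signalling 7 fell against 3.07% of all genes, 2 rose and 12 did not pass. The median log2 difference was -0.62. The list was chosen with earlier results of these data known. It held the connexin genes Gjb2 and Gjb6 as well as hormone signalling genes, so its share of falls depended on that choice. Tnfsf11, which encodes RANKL, the progesterone-induced signal for alveolar growth, measured 17.1 and 21.3 at involution against 70.5 and 66.0 at pregnancy (log2 difference -1.72, SE 0.15, adjusted p = 0.00042). Wnt4, another progesterone target, was under the floor in both involution animals (17.2 and 7.80) and at 60.4 and 47.1 at pregnancy, at least 2.67-fold lower at involution (adjusted p = 0.00246). Rspo1, a secreted enhancer of WNT signalling, measured 1.64 and 3.54 against 166 and 185, at least 8.76-fold lower (adjusted p = 7.51e-05). For these ligands the puberty and lactation means were also under 20, and of the arrays at the other stages only involution replicate 2 for Tnfsf11, at 21.3, lay above 20. Id4, a regulator of mammary stem and progenitor cells, measured 75.1 and 59.2 against 261 and 227 (log2 difference -1.87, SE 0.23, adjusted p = 0.00318). Tnfsf11, Wnt4, Rspo1 and Id4 were called without any 1 array, but Wnt4 was not at a floor of 50 (adjusted p = 0.466).

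The connexin genes Gjb2 and Gjb6 of that list fell as well. Gjb2, connexin 26, measured 81.4 and 131 against 1065 and 1414 (log2 difference -3.57, SE 0.28, adjusted p = 0.000299). Gjb6, connexin 30, was under the floor at involution (3.69 and 3.23) and at 133 and 207 at pregnancy, at least 8.28-fold lower (adjusted p = 0.00318), as its other probe set was. Both were called without any 1 array. The 2 rises of the list are named here after their values were seen: Cited1, a transcriptional coregulator of oestrogen-responsive cells, at 485 and 331 against 160 and 117 (log2 difference 1.55, SE 0.23, adjusted p = 0.00654), and Inhbb, the activin beta B subunit, at 160 and 122 against 41.0 and 36.4 (log2 difference 1.86, SE 0.27, adjusted p = 0.00697). Neither was called without pregnancy replicate 2, where the adjusted p was 0.0653 for Cited1 and 0.0662 for Inhbb.

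Mitotic genes were lower at involution, Kif11 and Hmgb2 among them. In many genes expressed in G2 and mitosis, a CHR element (TTTGAA) near the start site is bound by the DREAM and MuvB complexes, usually with CCAAT boxes bound by NF-Y upstream. The promoter windows of Kif11 and Hmgb2, from RefSeq on GRCm38.p6 and covering 250 bases before to 50 after the start site, are shown because they hold both elements. Capitals mark CHR elements and CCAAT boxes, and a match on the other strand appears as TTCAAA or ATTGG. The first is chr19:37376132-37376431, plus strand, and the second chr8:57511593-57511892, plus strand.
Kif11: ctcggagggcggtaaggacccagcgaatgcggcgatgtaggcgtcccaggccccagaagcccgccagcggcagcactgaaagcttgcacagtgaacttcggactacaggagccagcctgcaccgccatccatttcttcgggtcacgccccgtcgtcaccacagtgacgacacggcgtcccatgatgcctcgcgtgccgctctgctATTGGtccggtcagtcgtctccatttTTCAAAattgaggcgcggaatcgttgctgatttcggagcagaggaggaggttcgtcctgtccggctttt
Hmgb2: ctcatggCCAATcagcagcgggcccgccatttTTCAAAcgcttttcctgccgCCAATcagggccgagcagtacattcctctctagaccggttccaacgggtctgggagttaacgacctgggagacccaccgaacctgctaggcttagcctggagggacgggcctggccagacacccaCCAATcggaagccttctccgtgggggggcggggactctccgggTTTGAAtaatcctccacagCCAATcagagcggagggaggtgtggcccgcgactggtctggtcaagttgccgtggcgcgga

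Over all 32841 promoter windows, on either strand, 17.9% held TTTGAA and 37.4% held CCAAT. Of 36 windows of mitotic genes 25 (69.4%) held the first and 28 (77.8%) the second, and of 40 windows of DNA replication genes 5 (12.5%) and 23 (57.5%). Among the 9 windows of mitotic genes that fell, 6 and 7 did. Such matches of letters do not show binding.

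Kif11, the kinesin that separates spindle poles, measured 16.5 and 21.0 at involution against 121 and 97.7 at pregnancy (log2 difference -2.41, SE 0.30, adjusted p = 0.0034). Ncaph, a condensin subunit, was under the floor at involution (16.4 and 9.57) and at 48.5 and 35.6 at pregnancy, at least 2.08-fold lower (adjusted p = 0.00988). Tacc3, a spindle protein, was under it too (17.4 and 17.8) against 32.2 and 30.9, at least 1.58-fold lower (adjusted p = 0.0185). These 3 genes were called without any 1 array. The calls at the floor depended on it: with no floor the adjusted p was 0.298 for Ncaph and 0.571 for Tacc3, with an added constant of 16 it was 0.0588 and 0.217, at a floor of 50 both differences were 0, and Tacc3 was also lost with the replicate block (adjusted p = 0.0681). Hmgb2, a chromatin protein of dividing cells, measured 36.1 and 41.1 against 132 and 89.1 (log2 difference -1.49, SE 0.25, adjusted p = 0.0108), and Ccna2, cyclin A2, 92.5 and 139 against 415 and 272 (log2 difference -1.57, SE 0.26, adjusted p = 0.0102). Hmgb2 lost its call without pregnancy replicate 1 (adjusted p = 0.0508) or with no floor (adjusted p = 0.418), and Ccna2 without pregnancy replicate 1 (adjusted p = 0.0812) or involution replicate 1 (adjusted p = 0.051).

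As a list, 10 of 42 mitotic genes fell and none rose, with a median log2 difference of -1.02, and in 36 of the 42 both involution arrays lay below both pregnancy arrays, against 21.5% of all genes. The count was 4 without pregnancy replicate 1 and 5 without involution replicate 1, lactation replicate 1, lactation replicate 2 or puberty replicate 2, while the values as deposited gave 15. DNA replication genes gave 3 falls of 34 (Rrm1, Rrm2 and Rfc4) and a median of -0.45, and those calls were weaker. Rrm2, the inducible subunit of ribonucleotide reductase, fell by 1.47 on the log2 scale (SE 0.31) and was not called without pregnancy replicate 1 (adjusted p = 0.151), pregnancy replicate 2 (adjusted p = 0.112), involution replicate 2 (adjusted p = 0.135) or puberty replicate 2 (adjusted p = 0.05). None of the 3 was called without pregnancy replicate 1 or puberty replicate 2, 1 was called without pregnancy replicate 2, puberty replicate 1 or any lactation or involution array, and 2 without puberty replicate 3. Pcna, the replication clamp, measured 247 and 318 against 471 and 392, apart but short of the threshold (adjusted p = 0.0718). Of 23 genes of cell cycle entry and its inhibitors 2 rose (Gadd45a and Gadd45b) and 3 fell (Cdkn1c, Cdk4 and Myc). The stress-induced growth arrest genes Gadd45a and Gadd45b stood at 251 and 158 against 52.4 and 51.1 (log2 difference 1.94, SE 0.27, adjusted p = 0.00593) and at 113 and 111 against 39.9 and 32.9 (log2 difference 1.63, SE 0.26, adjusted p = 0.0094). Cdkn1c, the cyclin-dependent kinase inhibitor p57, was lower, at 69.2 and 57.1 against 246 and 189 (log2 difference -1.78, SE 0.35, adjusted p = 0.0227). None of the 3 falls was called without pregnancy replicate 1, pregnancy replicate 2, involution replicate 1 or involution replicate 2, where the adjusted p of Cdkn1c ran from 0.0722 to 0.153. Without pregnancy replicate 2 neither was called, with adjusted p = 0.0578 for Gadd45a and 0.0793 for Gadd45b, and the second Gadd45b probe set did not pass (adjusted p = 0.0698).

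**Figure D5:**
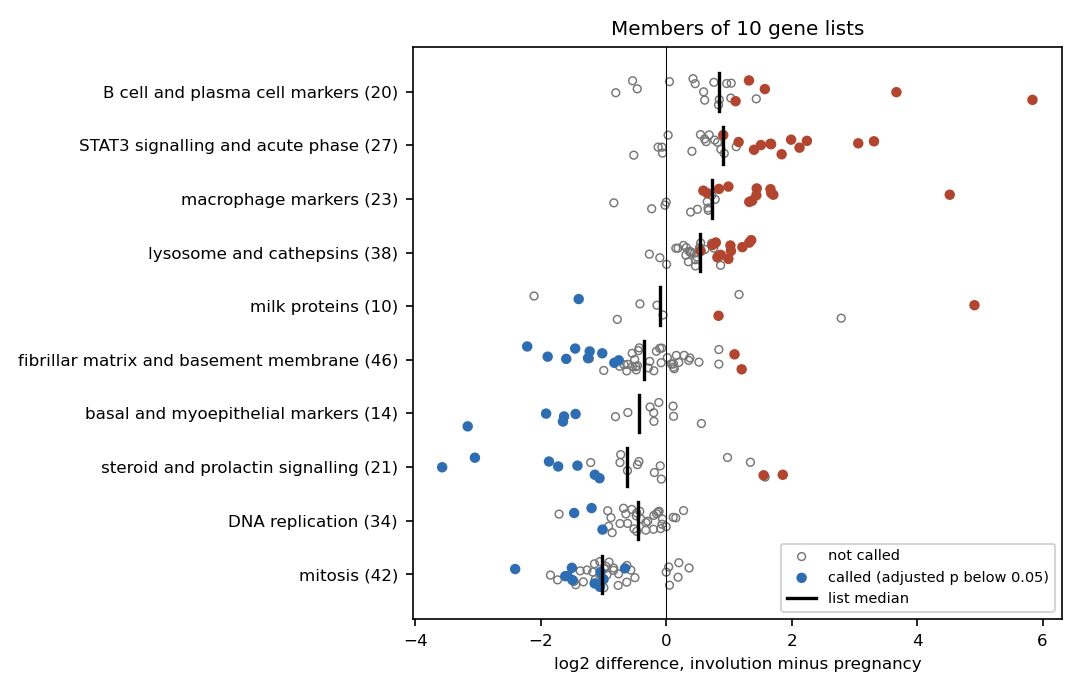
log2 differences (involution minus pregnancy) of the tested members of 10 gene lists, with called members filled, members not called as open circles, list medians as bars and the number of members in parentheses. Mitotic, hormone signalling, myoepithelial and matrix members lay mostly below 0, and B cell, STAT3, macrophage and lysosomal members mostly above it.

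Contractile and basal epithelial genes fell, with none of 14 markers higher and 5 lower (Lgals7, Tagln, Acta2, Actg2 and Cnn1). Lgals7, galectin-7 of stratified and basal epithelium, measured 17.1 and 25.2 at involution against 195 and 208 at pregnancy (log2 difference -3.17, SE 0.19, adjusted p = 8.38e-05). Tagln, transgelin, an actin-binding protein of smooth muscle and myoepithelium, measured 415 and 440 against 1222 and 1430 (log2 difference -1.63, SE 0.13, adjusted p = 0.00031). Involution stood close to the puberty mean of 462 for Tagln, and Lgals7 was under 20 on average at puberty and lactation. Both were called without any 1 array, and 2 of the 5 were called without pregnancy replicate 1 and 3 without pregnancy replicate 2. Acta2, smooth muscle actin, measured 665 and 496 against 1920 and 1683 (log2 difference -1.65, SE 0.22, adjusted p = 0.00533) and was just short of the threshold without pregnancy replicate 1 (adjusted p = 0.0572) or 2 (adjusted p = 0.051). Smooth muscle of vessels and ducts shares these contractile genes.

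Luminal markers gave 4 falls (Cd24a, Ehf, Elf5 and Cldn7) and 1 rise (Prom1) among 21 members. Cd24a, a surface glycoprotein of luminal cells, measured 801 and 742 against 2907 and 2845 (log2 difference -1.90, SE 0.23, adjusted p = 0.00328) and kept its call without any 1 array. Ehf, an epithelial ETS factor, was under the floor at involution (13.5 and 2.91) and at 76.3 and 72.5 at pregnancy, at least 3.72-fold lower (adjusted p = 0.00701), with the call lost without pregnancy replicate 1 (adjusted p = 0.0572) or 2 (adjusted p = 0.0601). Prom1, prominin-1, rose by 1.59 on the log2 scale and was not called without any 1 of the pregnancy, lactation or involution arrays (adjusted p from 0.0722 to 0.174). The 4 falls were 2 without involution replicate 1 and 1 without either pregnancy array. The summed signal of the luminal list was 5594 and 7901 at involution and 10236 and 11190 at pregnancy, and the share of epithelium in the other epithelial differences was not tested.

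Fibrillar and basement membrane genes gave 9 falls and 2 rises (Mgp and Lama3, the latter named after its values were seen) of 46. The falls were 19.6% of members against 3.07% of all genes. The rises were 4.3%, close to the 4.36% of all genes. Postn, periostin, measured 956 and 602 at involution against 2379 and 2205 at pregnancy (log2 difference -1.59, SE 0.24, adjusted p = 0.00758). Col4a1, a chain of basement membrane collagen, measured 811 and 993 against 1878 and 1764 (log2 difference -1.02, SE 0.15, adjusted p = 0.00697). Col1a1 lay lower in both involution animals, at 1294 and 1951 against 4029 and 3425, and did not pass (adjusted p = 0.0631). Matrix Gla protein (Mgp), an inhibitor of calcification, went the other way, at 547 and 624 against 268 and 240 (log2 difference 1.20, SE 0.18, adjusted p = 0.00697). None of the 9 falls was called without pregnancy replicate 1 or 2, when the adjusted p was 0.0774 and 0.0716 for Postn and 0.0571 and 0.0528 for Col4a1. There were 3 without involution replicate 1, 4 without involution replicate 2 and 5 without lactation replicate 1 or 2. Of the rises neither was called without pregnancy replicate 2, where Mgp had an adjusted p of 0.0661, and 1 was called without pregnancy replicate 1 or either involution array. Fibroblast markers gave 2 falls of 19 (Col1a2 and Col3a1, which stand in the matrix list too), both lost without either pregnancy or either involution array (adjusted p from 0.0594 to 0.127) and Col3a1 also without lactation replicate 1 (adjusted p = 0.0647) or 2 (adjusted p = 0.0683). Endothelial markers gave no call among 20 by limma, with a median log2 difference of 0.06, 4 higher and 0 lower at an unadjusted p under 0.05, and 1 rise by the plain analysis of variance, with quantile normalization and in the fits without involution replicate 1 or either lactation array.

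White adipocyte markers gave 4 rises of 18 (Rbp4, Lep, Pparg and Slc2a4) and no fall, with a median log2 difference of 0.61. Rbp4, the plasma retinol carrier, measured 1048 and 766 at involution against 293 and 184 at pregnancy (log2 difference 1.95, SE 0.28, adjusted p = 0.00649), and Lep, leptin, 1132 and 1290 against 379 and 486 (log2 difference 1.49, SE 0.23, adjusted p = 0.00741). Both involution animals exceeded both pregnant ones, but Rbp4 was not called without pregnancy replicate 2 (adjusted p = 0.0652) or involution replicate 1 (adjusted p = 0.052), nor Lep without pregnancy replicate 1 (adjusted p = 0.0772) or involution replicate 2 (adjusted p = 0.0644). The count was 1 without pregnancy replicate 2, involution replicate 1 or involution replicate 2 and 2 without pregnancy replicate 1. Adipoq, the main secretory product of fat cells, measured 4396 and 5707 against 3773 and 2860 and did not pass (adjusted p = 0.117). Skeletal muscle transcripts stood higher in pregnancy replicate 1 than in the other 3 arrays, with a summed signal of 2518 against 968 in pregnancy replicate 2 and 1210 and 1681 at involution. Tnnt3, a fast muscle troponin, measured 72.0 and 0.76 in the pregnant animals, and no marker of 25 was called by limma, by the plain analysis of variance or at an unadjusted p under 0.05.

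No difference passed for the major caseins, and the promoters of Csn1s1 and Csn2 are shown for the STAT sites they hold. STAT5, activated by prolactin, binds the sequence TTCNNNGAA in casein promoters. The windows of Csn1s1 (chr5:87665958-87666257, plus strand) and Csn2 (chr5:87699376-87699675, minus strand), again from RefSeq on GRCm38.p6, carry it in capitals.
Csn1s1: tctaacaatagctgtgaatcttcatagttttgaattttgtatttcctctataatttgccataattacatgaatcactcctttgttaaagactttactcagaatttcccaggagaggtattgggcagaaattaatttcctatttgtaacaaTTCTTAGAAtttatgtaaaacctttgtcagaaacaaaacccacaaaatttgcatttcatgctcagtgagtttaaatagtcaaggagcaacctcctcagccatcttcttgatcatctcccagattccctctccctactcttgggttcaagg
Csn2: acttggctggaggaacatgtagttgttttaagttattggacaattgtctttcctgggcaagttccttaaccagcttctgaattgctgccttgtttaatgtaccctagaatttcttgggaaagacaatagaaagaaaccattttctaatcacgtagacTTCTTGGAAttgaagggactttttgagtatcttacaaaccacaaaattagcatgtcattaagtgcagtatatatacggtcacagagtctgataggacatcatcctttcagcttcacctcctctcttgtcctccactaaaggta

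Of 8 windows of milk protein genes 4 (50%) held the motif on either strand, against 8.3% of all windows, and of 27 windows of the STAT3 and acute phase list 1 (3.7%) did. Csn1s1, alpha-s1 casein, measured 8100 and 9087 at involution and 9963 and 9064 at pregnancy, so the arrays of the stages overlapped. Csn2, beta casein, measured 3693 and 4016 against 5331 and 4973, and Csn3, kappa casein, 5103 and 7029 against 6667 and 5772. The 95% interval of the log2 difference was -0.54 to 0.44 for Csn3 but -3.12 to 2.83 for Csn1s1 and -2.59 to 1.75 for Csn2. The fit pools the spread of all stages, and for Csn2 the 3 puberty arrays alone ran from 4.86 to 238. Lactation means lay above both stages for Csn1s1 (27293) and Csn2 (15023).

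Of 10 milk protein genes 2 rose (Ltf, above, and Cel) and 1 fell (Glycam1). The lowest log2 difference of the list was -2.107, in a member that was not called, and 4 of the 10 differences were above 0. Leaving out puberty replicate 1 gave 2 falls. Glycam1, a mucin-like milk protein, fell by 1.40 on the log2 scale (SE 0.25, adjusted p = 0.0151) but was not called without pregnancy replicate 1 (adjusted p = 0.0556), pregnancy replicate 2 (adjusted p = 0.12), lactation replicate 2 (adjusted p = 0.0508) or involution replicate 2 (adjusted p = 0.0773). Cel, the bile salt-stimulated lipase of milk (adjusted p = 0.0489), was lost whichever array was left out (adjusted p from 0.0542 to 0.256). Csn1s2b measured 53.5 and 357 against 19.3 and 19.2 and did not pass (adjusted p = 0.0744), and Wap, whey acidic protein, measured 576 and 519 against 705 and 1249 (adjusted p = 0.834).

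Lipid genes, measured in the whole gland, did not move as a block. Fabp3, the fatty acid binding protein that accumulates in the lactating gland, was under the floor in both involution animals (5.32 and 7.28) and at 355 and 379 at pregnancy, at least 18.3-fold lower (adjusted p = 0.000163), against a lactation mean of 12982. It was called without any 1 array. Acot1, a cytosolic acyl-CoA thioesterase, measured 82.0 and 131 against 553 and 467 (log2 difference -2.30, SE 0.27, adjusted p = 0.00293) and was also called in all 9 fits. Of 21 genes of fatty acid and triglyceride synthesis 3 fell (Fabp3, Acot1 and Acsl4) and 3 rose (Me1, Gpam and Scd2, the last named after its values were seen), and of these 6 only Fabp3 and Acot1 held without any 1 array. The adjusted p over those fits reached 0.174 for Acsl4 and 0.221 for Gpam (both without pregnancy replicate 2), 0.148 for Me1 and 0.233 for Scd2 (both without pregnancy replicate 1). Plin2, the coat protein of lipid droplets, measured 1722 and 2031 against 2901 and 2887 and did not pass (adjusted p = 0.0639).

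Among 30 BCL2 family, death receptor and caspase genes 1 rose (3.3% against 4.36% of all genes) and none fell, with 4 higher and 0 lower at an unadjusted p under 0.05 in limma. The rise was Tnfrsf1b, the second TNF receptor, at 227 and 236 against 89.8 and 86.0 (log2 difference 1.40, SE 0.19, adjusted p = 0.00573, called without any 1 array), and a second was called when involution replicate 1 was left out. Bcl2l11, the BH3-only protein BIM, measured 270 and 363 against 172 and 176 and did not pass (adjusted p = 0.0616). None of 28 immediate early genes was called although their median log2 difference was 0.53. In 18 of them both involution arrays lay above both pregnancy arrays, against 28% of all genes, and the smallest adjusted p was that of Zfp36, a regulator of mRNA decay (0.0502). At an unadjusted p under 0.05 there were 7 higher and 0 lower, the plain analysis of variance called 0, and leaving out involution replicate 2 gave 2 rises and leaving out involution replicate 1 or either lactation array gave 1. None of 47 respiratory chain genes was called by limma or the plain analysis of variance, with a median of 0.03 and 1 higher and 1 lower at an unadjusted p under 0.05. Leaving out involution replicate 1 gave 1 fall.

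Some further falls were called without any 1 array. Reln, the extracellular glycoprotein reelin, measured 44.7 and 28.5 at involution against 226 and 209 at pregnancy (log2 difference -2.61, SE 0.28, adjusted p = 0.00166), and its second, dimmer probe set did not pass (adjusted p = 0.563). Ubd, the ubiquitin-like modifier counted above in the interferon list, measured 72.0 and 91.9 against 369 and 437 (log2 difference -2.30, SE 0.20, adjusted p = 0.000482). Crabp2, a carrier of retinoic acid, measured 65.7 and 60.04 against 214 and 185 (log2 difference -1.66, SE 0.23, adjusted p = 0.00528). Sec61b, a subunit of the channel through which secretory proteins enter the endoplasmic reticulum, measured 366 and 338 against 760 and 674 (log2 difference -1.03, SE 0.14, adjusted p = 0.00482). It stood among 29 genes of ER chaperones and the unfolded protein response, of which 3 fell (Sec61b, Ssr2 and Pdia6) and 1 rose (Ero1b), and of the falls 1 was called without pregnancy replicate 1, while the rise was lost without either pregnancy or either involution array. Of the 29 ER genes 10.3% fell and 3.4% rose, against 3.07% and 4.36% of all genes. For Reln, Ubd, Crabp2 and Sec61b the arrays of the stages did not overlap, as for every probe set called. Reln and Crabp2 belong to the 27 tested genes that the study named to represent expression profiles, which it clustered on these samples. The study had also required those genes to differ across stages in other published data sets. Of the 27, 8 rose and 8 fell, and as these samples entered the choice it is not independent evidence of direction.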

How the data were processed

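The authors hybridised labelled cRNA of whole inguinal mammary glands to Affymetrix MG-U74Av2 arrays and deposited 1 table of linear signal intensity per probe set from MAS5 (version not given in the sources used here), with each array scaled by them to 1 target: the mean of the middle 96% of values was 125 on all 9 arrays. No counts exist for arrays, and the number of arrays limits the precision. The stated filtering and per-gene normalization were not part of the deposited intensity values, and detection calls were not used here.

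After removal of 66 control probe sets, each array was scaled to the same median (factors 0.948 to 1.06), values below 20 were set to 20, and log2 was taken. Probe sets with a mean above 20 at 1 stage or more (9783) were fitted with limma 3.58.1 (lmFit, eBayes with trend; R 4.3.3) over all 9 arrays with 1 mean per stage and 5 residual degrees of freedom. The test was two-sided, with Benjamini-Hochberg adjustment and a threshold of 0.05. Printed signals are scaled and not floored. Between 13.2% and 15.5% of values per array were at the floor. A stage under the floor on both arrays gave a bound of the fold only. Simulated data for this comparison held 9783 probe sets, of which 200 changed by a log2 difference of 1 and 200 by 2, at involution alone. The share recovered was 36% for log2 differences of 1 and 73.5% for those of 2, with 8 false calls among 227. In the data themselves an estimated 76% of probe sets were unchanged, a smaller share than was simulated. The adjusted p depends on that share, so the recovery in the data could differ.

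Of the probe sets without controls, 10833 had 1 gene symbol, 396 several and 1193 none listed. Symbols came from the platform annotation, 10817 of them updated through Entrez identifiers with RefSeq (GRCm38.p6), and a gene was read from its probe set with the highest mean over all arrays. Named genes were the 15 largest rises and 15 largest falls with signal at both stages and arrays that did not overlap. Also named were up to 6 per direction at the floor in 1 stage and up to 5 members per list by adjusted p. All members of lists of 12 or fewer and genes named by the study were added. The members, lists and rule were chosen with earlier results of these data known. Lists are described by counts and medians and were not tested. Motifs were searched on both strands of RefSeq promoter windows. Each sample was 1 female, grouped by its GEO stage label. Alternatives were other scalings, floors, filters and fits, a replicate block, and leaving out each array. Figures were drawn with matplotlib 3.10.9.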

Additional observations from a re-analysis of the deposited data

How the results depend on the processing

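No call turned its direction under any of the 23 alternatives, though at a floor of 50 genes with all signals under it, Ncaph, Tacc3 and Fgb among them, had a difference of 0. That was largely fixed beforehand, since both arrays of one stage lay above both of the other for every call. Leaving out an array or changing the floor, filter or fit could not turn such a call, and only the other scalings could have. Beside 394 higher and 303 lower probe sets, scaling to the 75th percentile gave 366 and 362 and quantile normalization 353 and 392, so that 50.3% and 47.4% of calls were higher. Leaving out the filter gave 233 and 187, and a plain analysis of variance gave 177 and 145. The 4 arrays of the comparison alone, with 2 residual degrees of freedom, gave 1 higher and 0 lower by limma, with 1068 and 764 at an unadjusted p under 0.05, against 1244 and 937 in the fit of all arrays. With the replicate number as a block the counts were 195 and 140. The labels named no pairing by replicate number. Deviations of same-numbered involution and pregnancy arrays correlated at 0.05, which cannot show whether such arrays shared a batch. Fits without 1 array ranged from 83 to 356 higher and 83 to 251 lower. The median of the study's own 27 genes was 0.296 and ranged from -0.035, without pregnancy replicate 2, to 0.434, without pregnancy replicate 1, in such fits. That of 6 brown adipocyte markers was -0.353, became 0.010 with a filter of 100, and ranged from -0.435, without pregnancy replicate 2, to 0.005, without pregnancy replicate 1. Floors of 50 and none, an added constant of 16, a filter of 100, a filter on the 2 stages alone, robust fitting and no trend kept both counts within 1.5 times. The genes were not all the same: at a floor of 50 only 224 of the 394 higher and 162 of the 303 lower probe sets were still called, and with no floor 313 and 236. The causes were not tested. With 2 arrays per stage and a median difference between replicates of 0.27 (involution) and 0.19 (pregnancy) on the log2 scale, most changes under 2-fold could not be called.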

Other observations

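Some further gene groups were looked up after the values had been seen and carry no list test. Their counts stand beside 4.36% of all genes higher and 3.07% lower. Igf2 and Cdkn1c among them also stand in lists described above. Dbp and Nr1d1, genes of the circadian clock, varied between the involution animals. Dbp measured 102 and 211 at involution against 6.90 and 20.6 at pregnancy (log2 difference 2.85, SE 0.47, adjusted p = 0.0109). Nr1d1 measured 213 and 459 against 83.5 and 77.7 (log2 difference 1.96, SE 0.37, adjusted p = 0.0185). These were the 2 called genes of 16 clock genes, and both were lost without either pregnancy array, involution replicate 2 or either lactation array (adjusted p from 0.0553 to 0.137). The time of day at which glands were taken is not given in the sources used here.

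Among 21 imprinted genes, 4 fell (Igf2, Cdkn1c, Peg3 and Meg3) and 1 rose (Sgce), against 3.07% and 4.36% of all genes. Their median log2 difference was 0.09. Peg3, a zinc finger gene expressed from the paternal allele, measured 116 and 122 against 330 and 341 (log2 difference -1.50, SE 0.18, adjusted p = 0.00328) and was called without any 1 array, and its puberty mean was 369. Meg3, a maternally expressed noncoding RNA, measured 48.4 and 52.2 against 170 and 168 (log2 difference -1.75, SE 0.26, adjusted p = 0.0074), with the call lost without pregnancy replicate 1 (adjusted p = 0.0642) or 2 (adjusted p = 0.0695).

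Nucleolar factors of ribosome assembly gave 5 falls and no rise among 26, with a median of -0.53, and 21 of the 26 differences were below 0. Npm1, nucleophosmin, measured 1131 and 771 against 1953 and 1496 (log2 difference -0.87, SE 0.20, adjusted p = 0.0388), and each of the 5 calls was lost without pregnancy replicate 1 (adjusted p from 0.153 to 0.217). Of 21 aminoacyl-tRNA synthetases 4 fell against 3.07% of all genes, each lost without either pregnancy array (adjusted p from 0.0731 to 0.202), and 19 differences were below 0. Fgb, the beta chain of fibrinogen, was under the floor at pregnancy (2.70 and 4.26) and at 35.3 and 42.7 at involution, at least 1.94-fold higher (adjusted p = 0.0074, called without any 1 array). It was 1 of 4 rises among 17 coagulation genes, and the others, Fgg, F3 and Proc, were lost without pregnancy replicate 1 (adjusted p from 0.111 to 0.211), pregnancy replicate 2 (adjusted p from 0.0565 to 0.203) or either involution array.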
